A study of Mus musculus with 16 samples.

Results

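The stage difference is the amount by which the loss of Sin3A acts differently on a gene's RNA in cells polarized towards Th17 than in cells kept in IL-7. It was taken for every gene as the log2 difference between Sin3A-deficient and Sin3A-sufficient cells after Th17 polarization, minus the same difference before it. A negative value means that the deletion lowered the RNA more, or raised it less, at the Th17 stage. All 16 of the 16 libraries enter it, as 4 groups of 4. The cells were highly purified CD4 T cells of C57BL/6 J mice aged 2 months that carried Rosa26-CreERT2 +/- and Sin3A F/F, so that both sufficient and deficient cells came from animals with the inducible recombinase and the floxed gene. The 4 groups were cells kept for 6 days in IL-7 without tamoxifen (IL-7 sufficient) or with it (IL-7 deficient), and cells of either kind after 3 additional days in Th17 polarizing conditions (Th17 sufficient and Th17 deficient). Tamoxifen was given to deficient cells alone, so that deletion and drug cannot be told apart in any comparison here. CreERT2 under Rosa26 is not limited to T cells, and the recombination took place in the cultured cells.

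Each group holds a library with each of 4 numbers of the library titles, written here as n955, n957, n959 and n960, 1 marked female and 3 male. Whether such a number identifies an animal is not stated in the labels, and p-values measure the spread between these libraries, which may be technical. Values are restored normalized counts: the deposited values had lost their decimal point and were put back on the authors' scale, on which 1 read was worth close to 1 in every library. Restored library totals lay between 19752312 and 28601639 reads. Values in 4 libraries are given in the order n955, n957, n959, n960.

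Sin3A is a scaffold protein without known enzymatic activity that holds histone deacetylases and brings them to DNA-bound factors such as the Mad and Mxi1 partners of Max. The complex is best known as a repressor, and its removal can also lower the transcription of genes. IL-7 keeps resting T cells alive without strong activation, while Th17 polarization combines stimulation with cytokines and leads to cells that make IL-17A and IL-17F.

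Sin3a RNA itself was measured over the whole gene. It was 2761, 2438, 2213 and 2686 in IL-7 sufficient cells and 2358, 2148, 2164 and 2177 in IL-7 deficient cells, and these groups overlapped. After polarization it was 2019.7, 2271, 2239.9 and 1892 in sufficient and 1727, 1806, 1827 and 1737 in deficient cells, without overlap. The deletion effect was -0.24 (log2, SE 0.08, limma adjusted p = 0.0115) in Th17 cells and -0.19 (SE 0.08, limma adjusted p = 0.191) in IL-7 cells, and the stage difference was -0.06 (SE 0.11, limma adjusted p = 0.709). Which exons were deleted is not named by the labels, and reads from the rest of the transcript check nothing about the deletion.

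The fit covered 13945 rows of the deposited table, each a gene, of which 6656 could be given a name. Names came from the authors' list of genes lower in deficient Th17 cells. Named genes are therefore chosen on one arm of the stage difference and lean towards negative values, while the direction opposite to that can be counted but hardly named. A row was called when its adjusted p from limma, over all rows tested, was under 0.05.

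Of all rows, 2439 (17.5%) were called lower and 2794 (20%) higher for the stage difference. Among named genes 2286 (34.3%) were called lower and 14 (0.21%) higher, and among unnamed rows 153 (2.1%) were lower and 2780 (38.1%) higher. The deletion was called in 55.8% of rows in Th17 cells (3851 lower or 27.6%, 3932 higher or 28.2%), against 3.58% in IL-7 cells (253 lower or 1.81%, 246 higher or 1.76%), with the same number of libraries and a standard error from the same fit. The stage difference followed the Th17 arm in most rows: 2229 of the 2439 lower rows (91.4%) were lower in Th17 cells and not called in IL-7 cells, and 2488 of the 2794 higher rows (89.0%) were higher in Th17 cells and not called in IL-7 cells. Effects were called in the same direction at both stages, and larger in Th17 cells, for 40 of the lower rows and 95 of the higher ones. Opposite calls at the 2 stages were found in 48 rows, 20 with a lower and 28 with a higher stage difference. The deletion effect was called in IL-7 cells alone for 33 lower and 49 higher rows. A change of 2-fold or more was reached by 922 of the lower rows (37.8%) and 695 of the higher rows (24.9%).

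**Figure D1:**
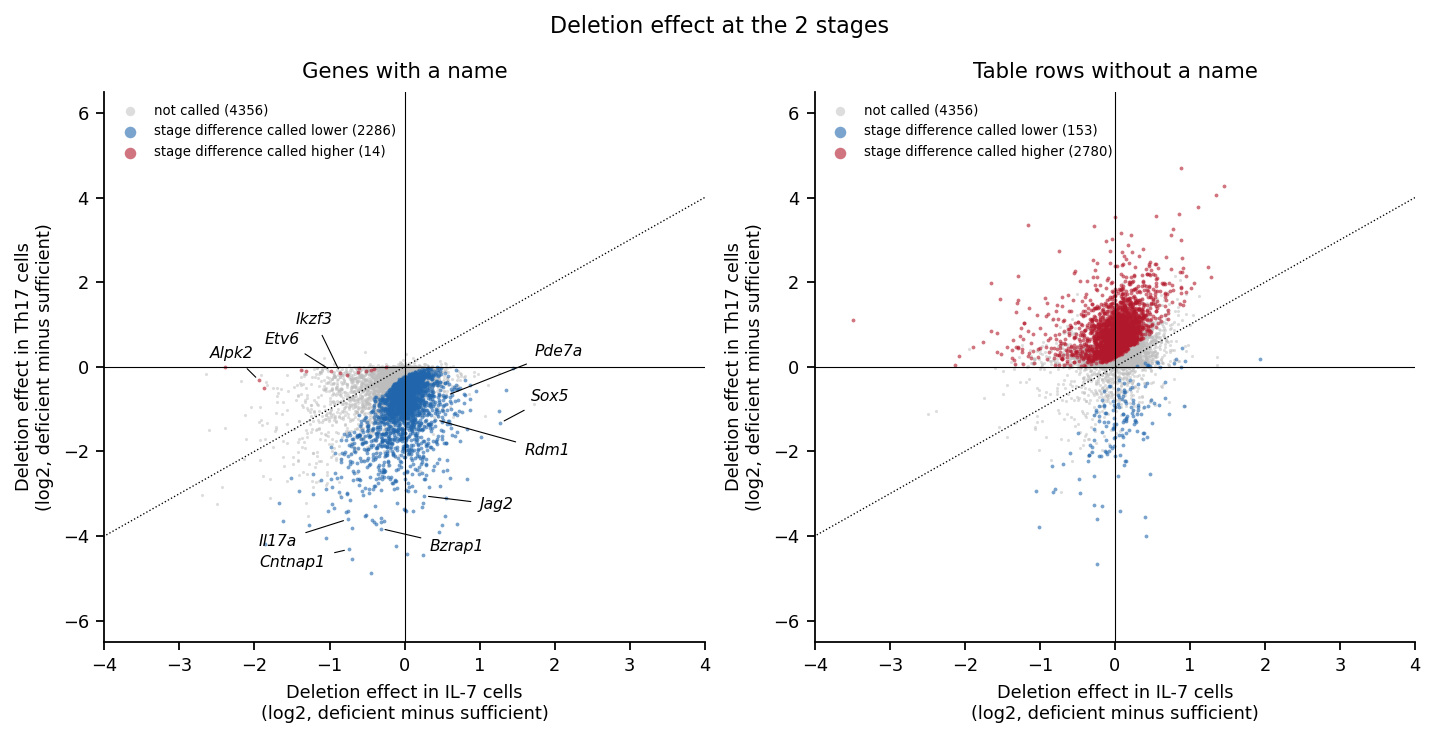
Deletion effect in Th17 cells (vertical axis) against that in IL-7 cells (horizontal axis), both as log2 deficient minus sufficient, for 6656 genes with a name (left) and 7289 rows without one (right). Each point is a gene, coloured by its call for the stage difference, and the dotted line marks equal effects. Points spread much further along the vertical axis than along the horizontal one, and the left panel holds almost no gene above 0, since its genes come from the authors' list of genes lower in deficient Th17 cells.

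Counts for the stage difference fell when the libraries of any 1 number were left out, which also left fewer libraries in each group. They were then 1404 to 2258 rows lower and 1703 to 2600 higher. The lowest, 1404 and 1703, came without the libraries numbered n957. Without these libraries 12 rows in place of 499 were called for the deletion in IL-7 cells. The highest such count when 1 number was left out was 536. Median centring, which sets every library to the same median log2 value, shifted all stage differences by -0.109. Under it 3176 rows were lower and 2144 higher, so that 59.7% of called rows were lower against 46.6%.

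Of the 15 named genes with the most negative stage differences and a mean of at least 100, 13 rose with Th17 polarization in sufficient cells and rose less or did not rise in deficient cells. The other two, Tmem108 and Jag2, fell in both. Bzrap1, which encodes a scaffold protein that binds RIM proteins at synapses, is the clearest by its error. It measured 284, 361, 343 and 392 in IL-7 sufficient cells and 293, 273, 265 and 269.8 in IL-7 deficient cells. After polarization it reached 1982, 3015, 4126 and 3803 in sufficient cells, and in deficient cells it stayed at 235, 169, 213 and 271. The IL-7 groups overlapped, while each of the Th17 sufficient libraries was far above every other library. The stage difference was -3.51 (log2, SE 0.26, limma adjusted p = 1.63e-07), made of -3.82 in Th17 cells and -0.32 in IL-7 cells (limma adjusted p = 0.402), and polarization in deficient cells gave -0.33 (limma adjusted p = 0.116).

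Others of these genes started near 0 in IL-7 cells. Myo16, an unconventional myosin, had between 0 and 2.54 in the 8 IL-7 libraries, then 296, 286, 395 and 499 in Th17 sufficient and 15.8, 26.7, 37.4 and 54.3 in Th17 deficient cells. Its stage difference was -4.05 (SE 0.66, limma adjusted p = 0.000188). So few reads in the IL-7 libraries leave that arm imprecise: the stage difference of Myo16 was -4.39 with a pseudocount of 0.5 and -3.33 with 8, since a pseudocount of 1 was otherwise added before logs and understates changes of low genes. Vldlr, a lipoprotein receptor, was similar, with 817, 528, 500.0 and 711 in Th17 sufficient against 31.6, 154, 164 and 119 in Th17 deficient cells and at most 8.89 in IL-7 cells. This made a stage difference of -3.48 (SE 0.76, limma adjusted p = 0.00189). Lrp1, an endocytic receptor, rose from between 10.1 and 27.1 to 605, 640.1, 683 and 1416 in sufficient cells and from between 10.6 and 35.6 to 114, 105, 93 and 92.2 in deficient cells. That is a stage difference of -3.00 (SE 0.53, limma adjusted p = 0.000372). In all 15 genes the Th17 deficient libraries lay below all Th17 sufficient ones and the IL-7 groups overlapped. The 15 were picked on these same values, so the separation describes them and is no further evidence.

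**Figure D2:**
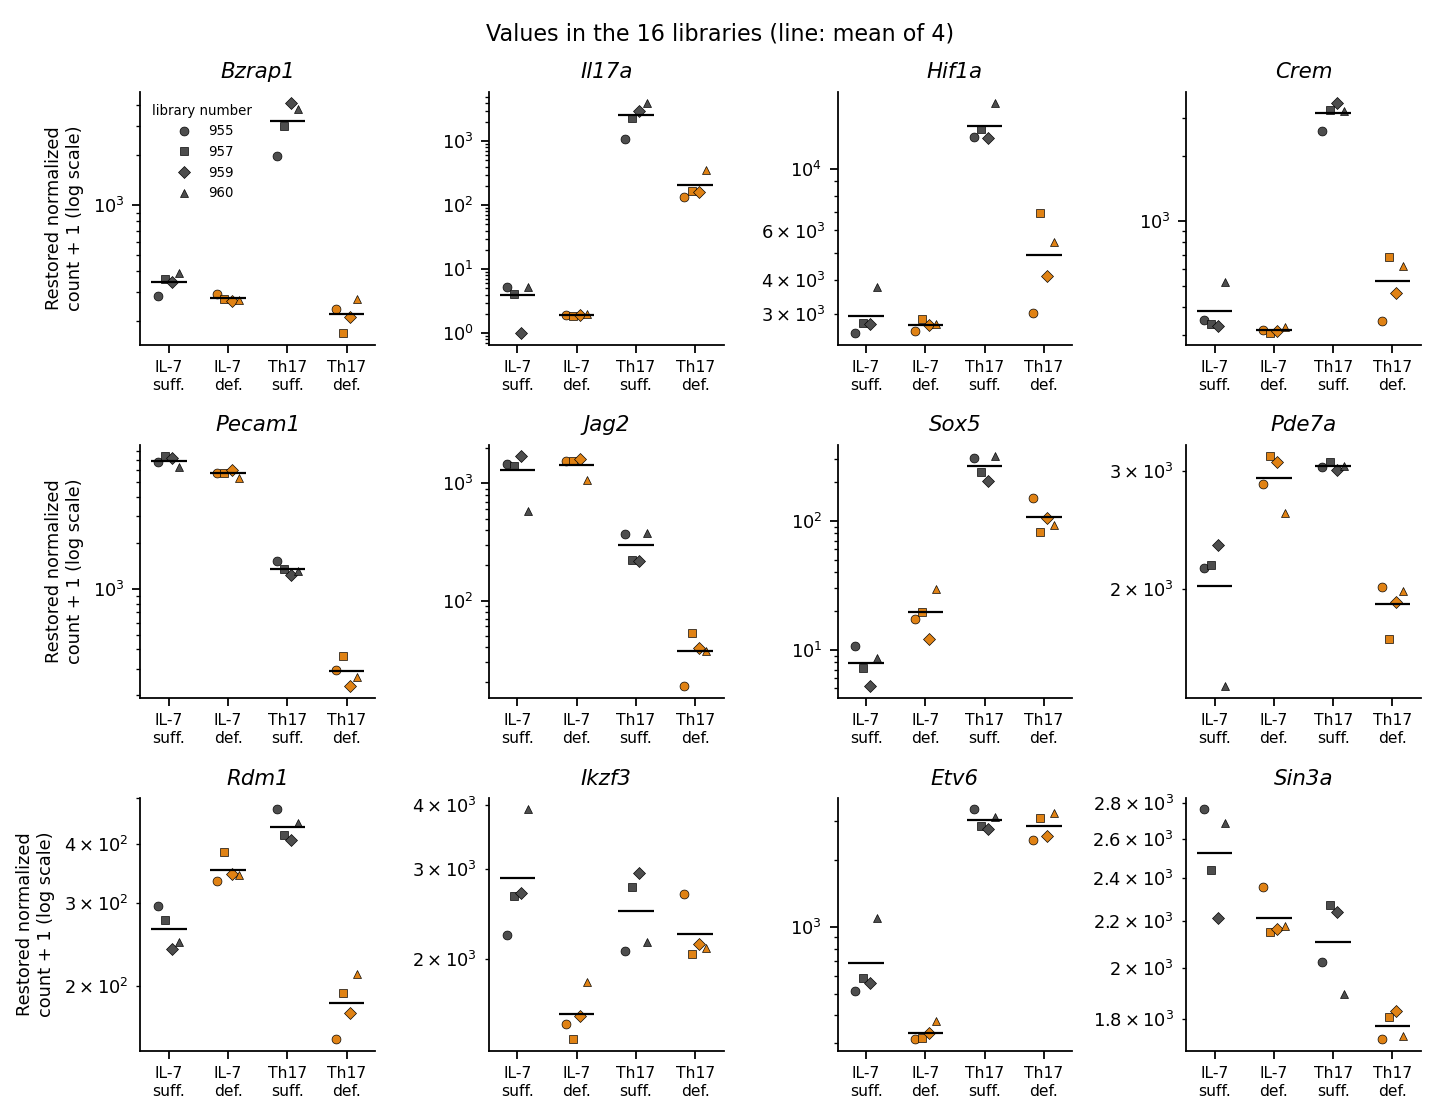
Restored normalized count plus 1 (log axis) of 12 genes in the 16 libraries, by group, with grey for sufficient and orange for deficient cells. Marker shapes stand for the library numbers and lines for the mean of 4. Bzrap1, Il17a, Hif1a and Crem are far lower in deficient cells after polarization and differ little before it, Pecam1 and Jag2 fall further in deficient cells, Sox5, Pde7a and Rdm1 change sides, Ikzf3 and Etv6 differ in IL-7 cells alone, and Sin3a changes little.

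The defining Th17 cytokines were among the genes whose induction was smaller. Il17a had 0 to 4.3 in the 8 IL-7 libraries. It reached 1072, 2275, 2953 and 3929 in Th17 sufficient cells, and 133, 168, 162 and 349.7 in Th17 deficient cells, with no overlap. The stage difference was -2.85 (SE 0.67, limma adjusted p = 0.00336). So few reads of Il17a in IL-7 cells leave its deletion effect there unmeasured, and limma voom, which weighs values by their read number, gave -2.83 with an adjusted p of 0.305. Il17f, which was already at 10.1 to 38.9 in IL-7 cells, reached 20569.7, 26033, 35932 and 29471 in sufficient and 8842, 8180.5, 7591 and 7028 in deficient cells. The contrast between stages was -1.58 (SE 0.48, limma adjusted p = 0.0152), with an adjusted p of 0.0656 under limma voom, 0.0591 without the libraries numbered n955 and 0.064 without those numbered n957. Both genes were still induced in deficient cells, by 6.62 for Il17a and 8.63 for Il17f (log2), against 9.46 and 10.21 in sufficient cells.

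The 300 bases around the start of Il17a are printed because it is the Th17 gene with the most negative stage difference, and those of Etv6, described further on, because it is a transcription factor with a positive one. Both come from RefSeq on build GRCm38.p6, run from 250 bases before to 50 after the start, and were chosen after their values were seen. Capitals mark matches, on either strand, to 1 of 5 motifs searched.
Il17a, chr1:20730655-20730954, plus strand: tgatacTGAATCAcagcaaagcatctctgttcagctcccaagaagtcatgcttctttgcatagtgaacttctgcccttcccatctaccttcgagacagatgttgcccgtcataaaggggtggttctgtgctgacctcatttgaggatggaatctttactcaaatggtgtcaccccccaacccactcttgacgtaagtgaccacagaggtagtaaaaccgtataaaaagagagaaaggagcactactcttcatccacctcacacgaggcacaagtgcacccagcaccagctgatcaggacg
Etv6, chr6:134035450-134035749, plus strand: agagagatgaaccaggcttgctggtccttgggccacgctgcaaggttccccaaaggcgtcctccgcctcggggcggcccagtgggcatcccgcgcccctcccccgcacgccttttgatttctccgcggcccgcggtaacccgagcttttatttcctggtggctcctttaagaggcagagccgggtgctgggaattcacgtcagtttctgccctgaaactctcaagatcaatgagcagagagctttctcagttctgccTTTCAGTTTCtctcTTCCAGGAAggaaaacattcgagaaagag
The capitals in Il17a match the AP-1 motif TGANTCA, which 7.93% of all 27025 promoters of the same length hold. Those in Etv6 match, from left to right, the interferon response motif (GAAA, any 2 bases, GAAA) on the other strand (3.49% of promoters) and the STAT motif TTCNNNGAA (8.47%). The E-box CACGTG (7.24% of promoters), through which Mad and Mxi1 partners of Max can recruit Sin3, and the CRE motif TGACGTCA (1.88%) matched neither window. A match is a description of letters. A comparison of motif shares between called and other genes is void, because 4317 of the 6656 named genes (64.9%) matched the promoter table by symbol.

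Of 31 genes chosen for the Th17 program 23 are in the authors' list and 16 could be tested, and Il23r and Rora, for example, are not analysed here. Of the 16 tested genes 5 were called lower, 31.3% against 34.3% of all named genes, with a median stage difference of -0.13 against -0.36 for all named genes. The called members were Il17a, Il17f, Hif1a, Nfkbiz and Rbpj. Hif1a, a transcription factor that drives glycolytic genes, went from 2568, 2788, 2758 and 3758 to 12948, 13908, 12886 and 17177 in sufficient cells. In deficient cells it went from 2606, 2876, 2757 and 2773 to 3032, 6948, 4125 and 5434. The groups did not overlap after polarization and overlapped before it, and the stage difference was -1.51 (SE 0.26, limma adjusted p = 0.000304). Nfkbiz, a nuclear regulator of NF-kB that promotes Il17a transcription, had a stage difference of -1.31 (SE 0.36, limma adjusted p = 0.00925), which missed the threshold without the libraries numbered n957 (adjusted p = 0.0698) or n959 (adjusted p = 0.0891). Maf, a transcription factor of the Th17 program, was not called although it was lower on average in deficient cells at both stages, with deletion effects of -0.24 in Th17 and -1.23 in IL-7 cells and a stage difference of 0.99, called in 2 of 29 alternatives (lowest adjusted p = 0.0143). Stat3, which transmits the IL-6 signal, had 0.11 (SE 0.25, limma adjusted p = 0.765), and -0.13 without the IL-7 sufficient library n960, and Tgfb1 had -0.18 (SE 0.15, limma adjusted p = 0.379). Tgfb1 was called in 1 of 29 alternatives, without the Th17 sufficient library n955 (adjusted p = 0.0488). Furin, a protease that matures TGF-beta, had -0.81 (SE 0.33, limma adjusted p = 0.0618) and was called in 5 of 29 alternatives: under median centring (adjusted p = 0.0382), without the libraries numbered n955 (0.00309), and without the IL-7 sufficient library n960 (0.017), the Th17 sufficient library n955 (0.004) or the Th17 deficient library n955 (0.0351).

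TGF-beta signalling, an input of Th17 differentiation, had 2 of 9 tested genes called lower (22.2%, median -0.41), against 34.3% and -0.36 for all named genes. The count was 4 without the Th17 sufficient library n955, 3 without the IL-7 sufficient library n960 or the Th17 deficient library n955, and 1 without the libraries numbered n957 or n959. The 2 genes were Smad3, which carries the signal to the nucleus, at -0.72 (SE 0.18, limma adjusted p = 0.00475), and the co-receptor Tgfbr3 at -0.58 (SE 0.19, limma adjusted p = 0.0204). Smad3 had 1496, 1264, 1337 and 1369 in IL-7 sufficient and 1519, 1288, 1450.3 and 1417 in IL-7 deficient cells. It had 1191, 1114, 976 and 1367 after polarization in sufficient and 606, 964, 757 and 629.6 in deficient cells, without overlap. The call of Tgfbr3 was lost without the libraries numbered n955 (adjusted p = 0.0666), n957 (adjusted p = 0.105) or n959 (adjusted p = 0.0524).

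Of 15 tested activation genes 3 were called lower (20%, median -0.27), against 34.3% and -0.36 for all named genes. With the library number as a block 5 were called. The 3 were the AP-1 subunit Fosl2, and the costimulatory receptors Tnfrsf4 (OX40) and Tnfrsf18 (GITR). Fosl2 rose from between 216 and 283 to 7999.9, 10237, 10282 and 12069.5 in sufficient cells and from between 182 and 236 to 2271, 3493, 2925 and 2431 in deficient cells. Between stages it differed by -1.62 (SE 0.20, limma adjusted p = 1.63e-05). Tnfrsf4 was 6834, 9119, 10242 and 9377 in Th17 sufficient and 2211, 3188, 2582 and 2632 in Th17 deficient cells, and its IL-7 groups overlapped, for a stage difference of -1.47 (SE 0.21, limma adjusted p = 5.92e-05). Tnfrsf18 was lower in deficient cells at both stages, with -1.72 in Th17 and -0.56 in IL-7 cells (log2), for a stage difference of -1.16 (SE 0.21, limma adjusted p = 0.000383). The immediate early genes Fos and Nr4a1 were not called, and had deletion effects of -0.91 and -1.15 for Fos and of -1.48 and -1.23 for Nr4a1 in Th17 and IL-7 cells. Bhlhe40, a stress-responsive repressor, was at -1.05 (SE 0.42, limma adjusted p = 0.0572), and was called in 7 of 29 alternatives. Its adjusted p was 0.0089 with the library number as a block, 0.0467 under limma voom and 0.0347 under median centring. It was 0.00435 without the libraries numbered n960, and 0.0006 (stage difference -1.43), 0.0394 and 0.0365 without the IL-7 sufficient library n960, the Th17 sufficient library n955 and the IL-7 deficient library n955.

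Among inhibitory receptors and genes shared with regulatory T cells, 3 of 9 tested were called lower, a share (33.3%) and a median (-0.35) close to those of all named genes (34.3% and -0.36). They were Tnfrsf18 again, Tigit and Ctla4. Tigit, an inhibitory receptor, had 282, 243, 254 and 581 in Th17 sufficient and 21.1, 50.8, 29.7 and 64.6 in Th17 deficient cells, the latter close to the range of 22.9 to 59.2 in IL-7 cells. It had a stage difference of -2.47 (SE 0.48, limma adjusted p = 0.000802). Ctla4, another inhibitory receptor, had -0.95 (SE 0.30, limma adjusted p = 0.0195) and was strongly induced in both genotypes, from between 596 and 804 to between 12829 and 16275 in sufficient and from between 314 and 481 to between 2673 and 6908 in deficient cells. Its call was lost without the libraries numbered n955 (adjusted p = 0.0719), n959 (adjusted p = 0.0798) or n960 (adjusted p = 0.0704).

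A second group fell during polarization in sufficient cells and fell further in deficient cells. Jag2, a Notch ligand, went from 1474, 1400.4, 1703 and 577 to 367, 219, 218 and 379 in sufficient cells and from 1558, 1542, 1623 and 1073 to 17.6, 51.7, 38.3 and 36.2 in deficient cells. Its stage difference was -3.31 (SE 0.47, limma adjusted p = 5.66e-05). Tmem108, a transmembrane protein, kept 137, 93.1, 83.5 and 212 in Th17 sufficient and 7.03, 16.7, 12.5 and 10.3 in Th17 deficient cells, from between 169 and 197 in all IL-7 libraries, for a stage difference of -3.34 (SE 0.36, limma adjusted p = 5.43e-06). Pecam1 (CD31), an adhesion molecule of naive T cells, went from 6809.9, 7392, 7256 and 6286 to 1521, 1349, 1224 and 1298 in sufficient cells. In deficient cells it went from 5772, 5727, 6002 and 5357 to 291, 363, 229 and 263. Its 2 IL-7 groups did not overlap either, with a deletion effect of -0.28 (SE 0.11, limma adjusted p = 0.174) there, and the stage difference was -1.97 (SE 0.15, limma adjusted p = 2.29e-07).

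Pecam1 belongs to the naive and quiescent genes, of which 5 of 11 tested were called lower (45.5%, median -0.69), against 34.3% and -0.36 for all named genes. The 5 were Pecam1, Satb1, Bcl2, Btg1 and S1pr1. The count was 3 without the libraries numbered n960 or the IL-7 deficient library n955, and S1pr1 was lost in 6 of 29 alternatives (highest adjusted p = 0.113). Satb1, a chromatin organizer of T cells, was 19388, 17722, 17342 and 19336 in Th17 sufficient and 6688, 12914, 7524 and 8629 in Th17 deficient cells. In IL-7 cells it was higher on average with deletion, 22549.7, 25698, 25731 and 20517 against 18288, 19048, 21532 and 13255, with overlap. The stage difference of Satb1 was -1.50 (SE 0.24, limma adjusted p = 0.000141). Btg1, an antiproliferative gene of quiescent cells, was at -0.70 (SE 0.17, limma adjusted p = 0.00355). Bcl2, the survival factor kept up by IL-7, was at -0.75 (SE 0.27, limma adjusted p = 0.0346), and dropped out of the calls in 8 of 29 alternatives, with an adjusted p of 0.114 without the libraries numbered n959. Il7r, the IL-7 receptor alpha chain, was not called (-0.26, SE 0.31, limma adjusted p = 0.54).

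T cell identity genes were called lower in 9 of 16 tested (56.3%, median -0.42), against 34.3% and -0.36 for all named genes. Among the 9 were Cd3d, Cd3e, Cd2, Thy1, Lck, Zap70, Trac and Ptprc, which build or carry the signal of the T cell receptor or mark the cell surface. Trac, the constant region of the receptor alpha chain, was 10863, 10017, 9698 and 8573 in IL-7 sufficient and 11360.0, 11189, 10279.6 and 11092 in IL-7 deficient cells, then 6697, 7707, 7095 and 7258 in Th17 sufficient and 4291, 4929, 4255 and 4069.8 in Th17 deficient cells. This made a stage difference of -0.88 (SE 0.11, limma adjusted p = 1.62e-05). Cd3d was at -0.79 (SE 0.10, limma adjusted p = 3.12e-05), while Cd4 was at -0.36 and not called (limma adjusted p = 0.0619), but was called in 4 of 29 alternatives (lowest adjusted p = 0.0212). Of the called genes, Thy1 was lost in 1 alternative, Ptprc in 2 and Zap70 in 4 (highest adjusted p = 0.0902, 0.0657 and 0.104). In RNA from bulk cells, fewer cells of a type and less RNA per cell cannot be told apart.

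Of genes of other T helper fates, 4 of 6 tested Th2 genes were called lower (66.7%, median -0.75) and 3 of 9 Th1 genes (33.3%, median -0.55), against 34.3% of all named genes with their median of -0.36. Crem, a factor that responds to cAMP and was listed there, went from 351, 336, 329 and 526 to 2616, 3268, 3498 and 3217 in sufficient cells and from 315, 304, 309.9 and 323 to 347, 682, 465 and 618 in deficient cells, for a stage difference of -2.34 (SE 0.25, limma adjusted p = 5.05e-06). Its IL-7 groups did not overlap either, with a deletion effect of -0.27 (limma adjusted p = 0.469). Nfil3, which was lost in 2 of 29 alternatives (highest adjusted p = 0.0776), and Stat6 were the other called members besides Gata3. The uncalled Th2 genes Il4ra and Ccr4 had positive values, 0.13 and 0.09 with the library number as a block (limma adjusted p = 0.713 and 0.822). Gata3, the factor that defines Th2 cells, fell from 992, 949, 973 and 1278 to 198, 316, 329 and 339.7 in sufficient and from 823, 798, 784 and 926 to 148, 79.2, 109 and 140.4 in deficient cells. That is a stage difference of -0.99 (SE 0.27, limma adjusted p = 0.0077), with an adjusted p of 0.0809 without the libraries numbered n957 and 0.0736 without those numbered n959. The called Th1 genes were Prf1, Ifngr1, lost in 2 of 29 alternatives (highest adjusted p = 0.101), and Stat4, which carries the IL-12 signal, at -0.79 (SE 0.23, limma adjusted p = 0.0124). Without the libraries numbered n960 the adjusted p of Stat4 was 0.0562. The Th1 count was 1 without the libraries numbered n955 or n957.

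Glycolysis genes had 9 of 20 tested called lower (45%, median -0.53), against 34.3% and -0.36 for all named genes. Of the 20 genes, 17 rose with polarization in sufficient cells, against 40.5% of all named genes. Slc2a3, a glucose transporter, went from 974, 848, 1077 and 817 to 7213, 7484, 8344 and 9459 in sufficient cells. In deficient cells it went from 889, 779.9, 934 and 849 to 235, 2340.4, 1717 and 1626, so that the library numbered n955 was below and the others above their IL-7 level. The stage difference was -2.76 (SE 0.65, limma adjusted p = 0.00318), and -2.08 (adjusted p = 2.75e-05) without the libraries numbered n955. Aldoc, an aldolase, was at -2.59 (SE 0.67, limma adjusted p = 0.0059), and the other glucose transporter Slc2a1 at -0.84 (SE 0.19, limma adjusted p = 0.00288). Gapdh, Pgk1, Aldoa, Eno3, Pfkfb4 and Pdk1 were also called lower, of which Gapdh was lost in 9 of 29 alternatives, Pgk1 in 8, Pdk1 in 4 and Eno3 in 2, while Ldha (-0.26), Eno1 (-0.19) and Slc16a1 (0.02) were not called.

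In the amino acid stress response 4 of 13 tested genes were called lower (30.8%, median -0.46), against 34.3% and -0.36 for all named genes. Ddit4, an inhibitor of mTORC1 that stress induces, had 1364, 1500.1, 1484 and 1293 in IL-7 sufficient and 1483, 1695, 1466 and 1638 in IL-7 deficient cells. It rose to 18209, 24468, 24981 and 25483 in sufficient and to 7184, 7306, 8565 and 7278 in deficient cells, for a stage difference of -1.76 (SE 0.14, limma adjusted p = 2.29e-07). Trib3, a target of ATF4, fell by 0.53 in sufficient and by 2.0 in deficient cells with polarization (log2), a stage difference of -1.47 (SE 0.22, limma adjusted p = 0.000108). The remaining called members were Vldlr and Atf4, the latter at -0.61 (SE 0.18, limma adjusted p = 0.0146) and lost without the libraries numbered n957 (adjusted p = 0.0787) or n959 (adjusted p = 0.115).

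Inhibitors of cyclin-dependent kinases, which hold the cell cycle, had 3 of 4 tested called lower (75%, median -1.03), against 1 of 12 cell cycle genes (8.33%, median 0.14). For all named genes these values were 34.3% and -0.36. Cdkn1b (p27) was 8093, 9074, 9592 and 9322 in Th17 sufficient and 3789, 4491, 4648 and 4579 in Th17 deficient cells, and overlapped in IL-7 cells with 8365, 7357, 7582 and 4991 against 8710.3, 8068, 8161 and 6912. The contrast between stages was -1.24 (SE 0.18, limma adjusted p = 6.47e-05). Cdkn1c (p57) was at -1.85 (SE 0.45, limma adjusted p = 0.00379), which became -1.03 (adjusted p = 0.0157) with a pseudocount of 8, and Cdkn2d (p19) at -0.83 (SE 0.17, limma adjusted p = 0.00118). Of the cell cycle genes, Cdc25b was called, at -0.84 (SE 0.23, limma adjusted p = 0.00896), with an adjusted p of 0.0667 without the libraries numbered n957. Others, such as Foxm1 (0.75) and Bub1 (0.67), had positive values that were not called: the deletion effect of Foxm1 was -0.93 in IL-7 and -0.19 in Th17 cells. Foxm1 was called in 1 of 29 alternatives (adjusted p = 0.0438). The median of the cell cycle genes was -0.10 without the IL-7 sufficient library n960 and -0.05 without all libraries numbered n960.

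Members and partners of the Sin3 complex had 4 of 11 tested called lower (36.4%, median -0.23), a share near the 34.3% of all named genes (median -0.36). Tet1, a methylcytosine dioxygenase found with Sin3A, was 300.2, 354, 325 and 343 in IL-7 sufficient and 182, 212, 267 and 256 in IL-7 deficient cells, then 157, 129, 105 and 135 in Th17 sufficient and 29, 47.5, 37.4 and 23.3 in Th17 deficient cells. Groups did not overlap at either stage, and the stage difference was -1.40 (SE 0.27, limma adjusted p = 0.000812). Kdm5a, a histone demethylase, was at -0.81 (SE 0.17, limma adjusted p = 0.00166), and Morf4l1, a chromodomain subunit, at -0.59 (SE 0.11, limma adjusted p = 0.000385). Mxi1, a partner of Max that recruits Sin3, differed in IL-7 cells in place of Th17 cells: it was 752, 756, 812 and 537 in sufficient and 989.7, 1029.9, 1039.6 and 839.9 in deficient cells in IL-7, and 2861, 3202, 2903 and 3107 against 2525, 3354, 3114 and 2960.4 after polarization. Between stages it differed by -0.48 (SE 0.16, limma adjusted p = 0.0292), with a deletion effect of 0.46 in IL-7 (limma adjusted p = 0.0364) and -0.02 in Th17 cells, and it missed the threshold in 7 of 29 alternatives, with adjusted p from 0.0571 without the Th17 sufficient library n957 to 0.0894 without the libraries numbered n957.

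Of 75 cytosolic ribosomal protein genes, whose reads may be shared with near-identical copies, 21 were called lower (28%, median -0.25), against 34.3% of all named genes. The count was 41 without the IL-7 sufficient library n960 and 51 under median centring. Calls of all named genes moved too, from 2286 lower to between 1997 and 2450 when any 1 library was left out. Median centring shifted every stage difference by -0.109, so these counts are no result about ribosomal genes alone. Rpl22l1, a ribosomal protein paralog, stood out at -1.49 (SE 0.13, limma adjusted p = 9.17e-07): it was 2967, 3469.6, 4059 and 4238 in Th17 sufficient and 1305, 1330.2, 1485 and 1574 in Th17 deficient cells. Of 34 respiratory chain genes 4 were called (median -0.06), of which Cox7a1, a cytochrome oxidase subunit of muscle, was at -2.64 (SE 0.29, limma adjusted p = 6.52e-06) and Cox4i2 at -2.92 (SE 0.79, limma adjusted p = 0.00798), the latter lost without the libraries numbered n959 (adjusted p = 0.0616) or n960 (adjusted p = 0.0789). Mitochondrial ribosomal protein genes had 1 of 20 called (median -0.09). Zinc finger genes had 70 of 179 called (39.1%, median -0.38) and solute carriers 24 of 65 (36.9%, median -0.41), near the 34.3% of all named genes. The 7 tested proteasome genes had a median of 0.12 and spanned -0.22 for Psmc6, called in 4 of 29 alternatives, to 0.59 for Psmb9, called in 1.

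Interferon-induced genes had 3 of 15 tested called lower for the stage difference (20%, median -0.17), against 34.3% and -0.36 for all named genes. Median deletion effects of the interferon-induced genes were -1.18 in Th17 and -1.04 in IL-7 cells. The IL-7 sufficient library n960 stood apart in these genes: Dhx58, a cytosolic RNA sensor, was 422, 532, 429 and 1529 in IL-7 sufficient and 351, 398, 464 and 399 in IL-7 deficient cells. It was 217, 343, 429.6 and 474 in Th17 sufficient and 48.3, 64.2, 78.6 and 65.5 in Th17 deficient cells. It had a stage difference of -1.83 (SE 0.46, limma adjusted p = 0.00502), with an adjusted p of 0.053 without the libraries numbered n957 and 0.0523 without those numbered n959. Without the IL-7 sufficient library n960 the median IL-7 effect of the list was -0.29, the median stage difference -0.84, and 6 genes were called lower. Without that library 5 of 15 activation genes, 8 of 34 respiratory chain genes, 3 of 12 cell cycle genes and 3 of 14 genes of the IL-2 and STAT5 list were called lower. With it these counts were 3, 4, 1 and 2 (median -0.04 for the last list). Of all named genes 2286 were called lower with every library kept, and 1997 to 2450 when any 1 library was left out. Cholesterol synthesis genes had 2 of 13 called (median -0.24), with Srebf2, the factor that controls them, at -0.48 (SE 0.13, limma adjusted p = 0.00912), and 0.0646 without the libraries numbered n957.

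**Figure D3:**
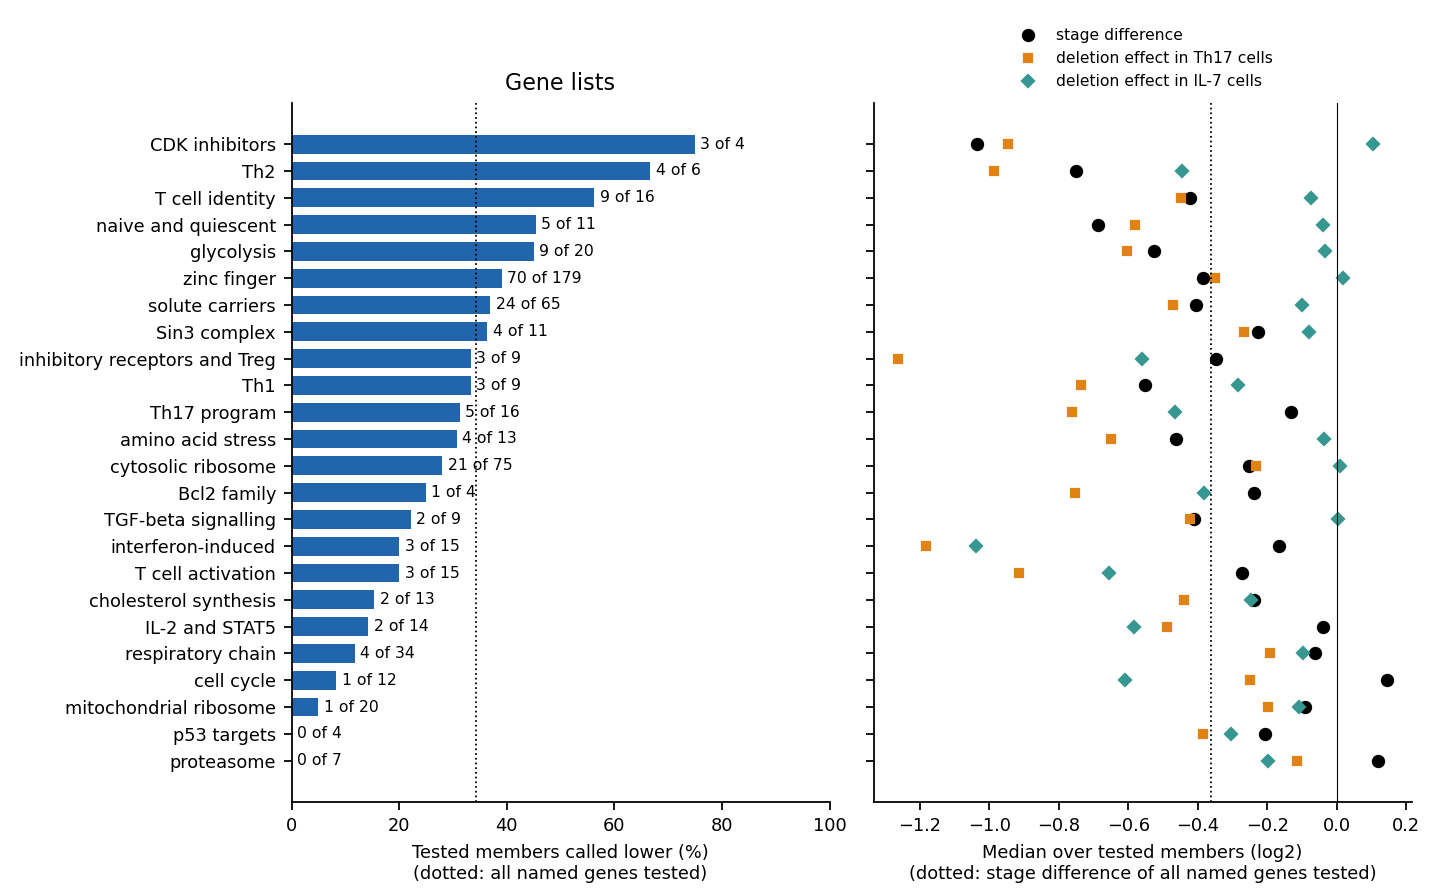
Share of tested members called lower for the stage difference (left, percent, with the number called of those tested) and median over tested members (right, log2) of the stage difference (black circles), the deletion effect in Th17 cells (orange squares) and that in IL-7 cells (green diamonds), for 24 gene lists. Dotted lines give 34.3% and -0.36 for all named genes tested. The IL-7 medians lie near 0 in lists such as CDK inhibitors, glycolysis and T cell identity, and far below 0 in the interferon-induced and activation lists.

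Over all lists 571 genes were tested, of which 180 were called lower and 0 higher by limma, 2 were higher at an unadjusted p under 0.05 and 2 were called higher by limma voom. The direction is set in part by which genes have names. Leaving out the libraries of 1 number gave 3 to 6 called genes of the Th17 program, 3 to 5 naive and quiescent genes, 6 to 9 of T cell identity, 6 to 10 of glycolysis, 3 of the CDK inhibitors throughout, 3 to 4 of the Sin3 complex, 6 to 23 of the cytosolic ribosome and 0 to 5 of the interferon-induced genes. The Bcl2 family had 1 of 4 tested genes called, Bcl2 itself, and the p53 targets 0 of 4, with 0 at an unadjusted p under 0.05 and 1 when the libraries of 1 number were left out.

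In 19 named genes the deletion effect was called in opposite directions, higher in IL-7 and lower in Th17 cells. Of all named genes 0.571% were called higher in IL-7 cells and 54.2% lower in Th17 cells. The IL-7 groups did not overlap in any of the 19, and the Th17 groups did not overlap in 16. The 19 were picked by calls on these same values, so the separation describes them and is no further evidence. Sox5, an SRY-related transcription factor, was 9.68, 6.23, 4.21 and 7.61 in IL-7 sufficient and 16.2, 18.5, 11 and 28.7 in IL-7 deficient cells. After polarization it was 307, 238, 202 and 315 in sufficient and 149, 80.8, 103 and 91.3 in deficient cells. The deletion effect turned from 1.28 (limma adjusted p = 0.0217) to -1.33 (limma adjusted p = 0.000824), and the stage difference was -2.60 (SE 0.41, limma adjusted p = 0.00013). Rdm1, a gene with a RAD52 motif, was 295, 275, 239 and 247 against 333, 383, 344 and 343 in IL-7 cells, and 472, 416, 407 and 441 against 154, 193, 174 and 212 in Th17 cells, for a stage difference of -1.66 (SE 0.16, limma adjusted p = 1.41e-06).

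Pde7a, a phosphodiesterase that degrades cAMP, and P2rx4, an ion channel opened by ATP, changed sides in the same way. Pde7a was 2147, 2168, 2321 and 1434 in IL-7 sufficient and 2866, 3149, 3086 and 2589 in IL-7 deficient cells, then 3040.0, 3083, 3006 and 3041 in Th17 sufficient and 2014, 1684, 1915 and 1984 in Th17 deficient cells. Its stage difference was -1.24 (SE 0.16, limma adjusted p = 3.2e-05). P2rx4 was 678, 647, 659.9 and 487 against 996, 1055, 876 and 881 in IL-7 cells and 501, 573, 684 and 667 against 402, 481, 313 and 432 in Th17 cells, for a stage difference of -1.21 (SE 0.20, limma adjusted p = 0.000175). The remaining genes with the largest differences of this kind were Katnal1, a relative of the microtubule-severing katanin (-1.24), the transcription factor Carf (-1.25), and the variable segments Trav14d-3-dv8 (-1.54) and Trav7-4 (-1.42), whose reads may be shared with related segments. The stage differences of all 8 held in every alternative, but the count of 19 depends on the smaller IL-7 arm: it was 0 without the libraries numbered n957 or n959, 0 without the IL-7 deficient library n957, and 12 without the IL-7 sufficient library n960, which was the lowest of its group in 10 of the 19.

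Named genes with a positive stage difference were few, 14, and 13 of them were called lower in IL-7 cells, as 2.73% of all named genes were. Names come from genes lower in deficient Th17 cells, so a positive value needs an IL-7 effect that is lower still. The count of 13 was therefore largely set by which genes have names. In 12 of the 13 genes the IL-7 deficient libraries lay below all sufficient ones, and in Alpk2 the groups overlapped. Since the 13 were picked by their IL-7 calls, this separation is no further evidence. Etv6, an ETS-family repressor that can act with Sin3A, was 512, 588, 561 and 1094 in IL-7 sufficient and 312, 317, 331 and 377 in IL-7 deficient cells. It rose to 3385, 2849.9, 2761 and 3118 in sufficient and 2476, 3079.7, 2576 and 3266 in deficient cells, which overlapped. The stage difference was 0.88 (SE 0.25, limma adjusted p = 0.00988), from deletion effects of -0.97 in IL-7 cells (limma adjusted p = 0.0059) and -0.09 in Th17 cells (limma adjusted p = 0.675).

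Ikzf3 (Aiolos), a zinc finger factor of lymphocytes, was 2229, 2653, 2690.3 and 3916 in IL-7 sufficient and 1492, 1393, 1547 and 1799 in IL-7 deficient cells, and overlapped in Th17 cells with 2073, 2764, 2941 and 2159.8 against 2674, 2041, 2136 and 2102. This made a stage difference of 0.71 (SE 0.21, limma adjusted p = 0.0145). Fam19a3, a secreted chemokine-like protein, was 300.2, 348, 298 and 667 against 153, 148, 159 and 152 in IL-7 cells and 97.3 to 197 in all Th17 libraries, for a stage difference of 1.20 (SE 0.33, limma adjusted p = 0.00856). Ahcyl2, related to adenosylhomocysteinase, had 0.59 (SE 0.18, limma adjusted p = 0.015). The IL-7 sufficient library n960 was the highest of its group in 13 of the 14 genes. Without it the stage difference was 0.64 for Etv6 (adjusted p = 0.00216), 0.55 for Ikzf3 (adjusted p = 0.018), 0.93 for Fam19a3 (adjusted p = 0.0081) and 0.42 for Ahcyl2 (adjusted p = 0.00568), and 8 of the 14 were still called. Without the libraries numbered n957 all of these 4 missed the threshold, with adjusted p of 0.0781 for Etv6, 0.0521 for Ikzf3, 0.0664 for Fam19a3 and 0.0944 for Ahcyl2.

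Alpk2, an alpha kinase, and Fstl4, a follistatin-like protein, had larger positive values that rest on few reads. Alpk2 was 3.23, 7.01, 0.843 and 5.92 in IL-7 sufficient and 0, 0, 0 and 0.988 in IL-7 deficient cells, against 745 to 1153 in all Th17 libraries. Its stage difference of 1.62 (SE 0.50, limma adjusted p = 0.0171) became 0.22 with a pseudocount of 8, and missed the threshold without the libraries numbered n955 (adjusted p = 0.0667) or n957 (adjusted p = 0.148). Fstl4, at 4.3, 5.45, 6.74 and 15.2 against 1.9, 0, 0.917 and 0 in IL-7 cells and 8.7 to 24.5 in Th17 libraries, had 2.39 (SE 0.64, limma adjusted p = 0.00731), which a pseudocount of 8 reduced to 0.82. It missed the threshold without the libraries numbered n959 (adjusted p = 0.053) or n960 (adjusted p = 0.0574).

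The stage difference can also be read as the polarization effect in deficient cells minus that in sufficient cells. Both readings use the same 16 libraries, so the polarization values are another view of it and not further evidence. Polarization was called in 77.1% of rows in sufficient cells (5679 lower or 40.7%, 5078 higher or 36.4%) and in 79.2% in deficient cells (5708 lower or 40.9%, 5334 higher or 38.3%). Of the 5078 rows that rose in sufficient cells, 1019 (20.1%) had a lower stage difference: 428 of these still rose in deficient cells, as Fosl2 and Ddit4 did, 403 were not called there, as Bzrap1 and Tigit, and 188 fell there, as Cntnap1 and Rpl22l1 did. Of the 5679 rows that fell in sufficient cells, 1370 (24.1%) had a higher stage difference, and of these 569 still fell in deficient cells, 485 were not called and 316 rose. All 901 rows with a lower stage difference that fell in sufficient cells fell in deficient cells too, as Jag2 and Pecam1 did. Likewise all 871 rows with a higher stage difference that rose in sufficient cells also rose in deficient ones. The direction in both sets follows from the subtraction itself. Of rows not called for polarization in sufficient cells, 519 had a lower stage difference, and 512 of these fell in deficient cells. Another 553 had a higher one, and 540 of these rose in deficient cells.

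Cntnap1, an axonal contactin-associated protein, shows the change of side. It was 78.5, 119.9, 105 and 152 in IL-7 sufficient and 52.3, 52.8, 78.8 and 86 in IL-7 deficient cells, then 214, 412, 656 and 511 in Th17 sufficient and 19.3, 16.7, 18.2 and 26.7 in Th17 deficient cells. Polarization moved it by 1.89 (SE 0.30, limma adjusted p = 1.51e-05) in sufficient and by -1.68 (SE 0.30, limma adjusted p = 5.32e-05) in deficient cells, a stage difference of -3.57 (SE 0.42, limma adjusted p = 1.08e-05).

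**Figure D4:**
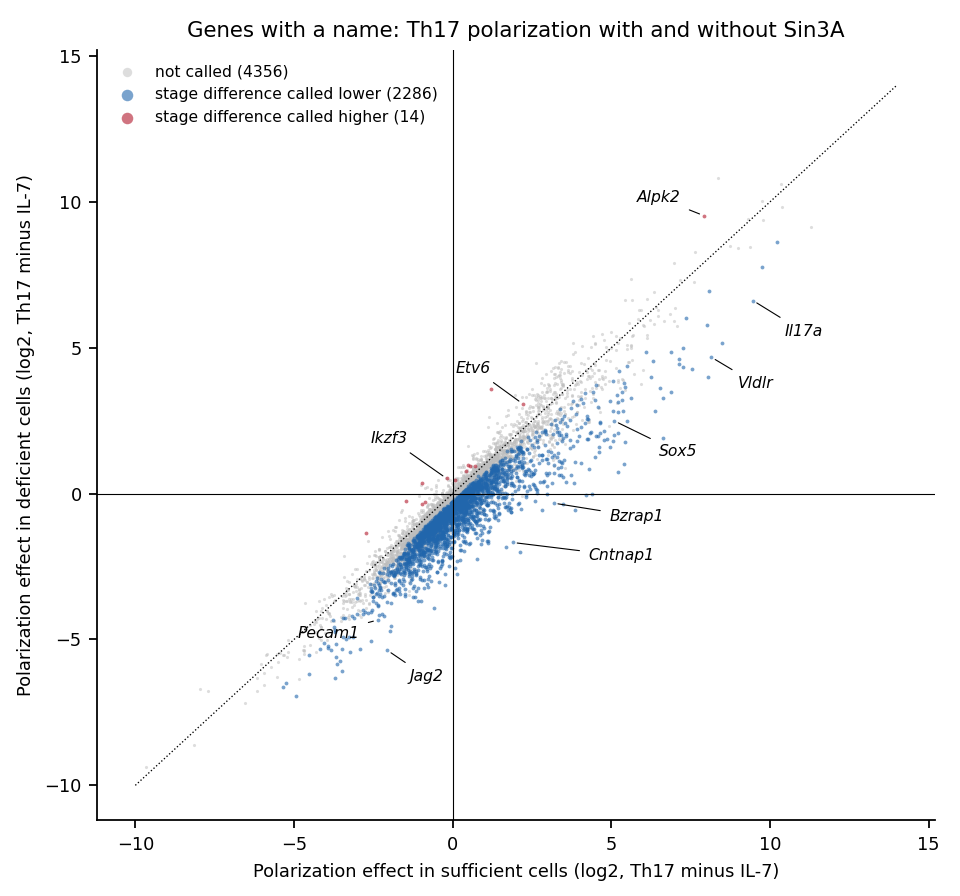
Polarization effect (log2, Th17 minus IL-7) in deficient cells (vertical axis) against that in sufficient cells (horizontal axis) for 6656 named genes, coloured by the call for the stage difference, with equal effects on the dotted line. By definition the 2286 genes called lower lie below the line and the 14 called higher lie above it. Those called lower spread over the whole range of polarization effects.

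Markers of cell types differed between the groups. A marker could be used only if it was named, and names come from the authors' list of genes lower in deficient Th17 cells. Lower values in Th17 deficient libraries, here and in the longer lists below, were therefore fixed in part by that choice. The summed level of 5 CD4 T cell markers (Cd4, Cd3d, Cd3e, Thy1 and Lck, of 7 chosen) was 61026 to 70559 in IL-7 sufficient, 57736 to 62716 in IL-7 deficient, 46038 to 50444 in Th17 sufficient and 29046 to 32560 in Th17 deficient libraries. The B cell markers Cd79a and Cd79b, 2 of 6, summed to 109 to 259, 67.8 to 142, 35.8 to 64.2 and 23.3 to 32.5 in the same order, and Cd8b1, 1 of 6 for CD8 T and NK cells, was 331 to 534, 323 to 430, 150 to 175 and 73.3 to 116. Of the 8 myeloid markers 0 had a usable value. Of longer lists for these cells, 1 of 4 tested B cell genes was called lower (Ighm, -1.66, SE 0.26, limma adjusted p = 0.000116), 1 of 3 CD8 T and NK genes (Prf1, at -2.03, SE 0.78, limma adjusted p = 0.0492, lost in 18 of 29 alternatives) and 1 of 1 myeloid genes (Cd68, -1.36, SE 0.23, limma adjusted p = 0.000232). The part of other cells in the results was not tested.

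**Figure D5:**
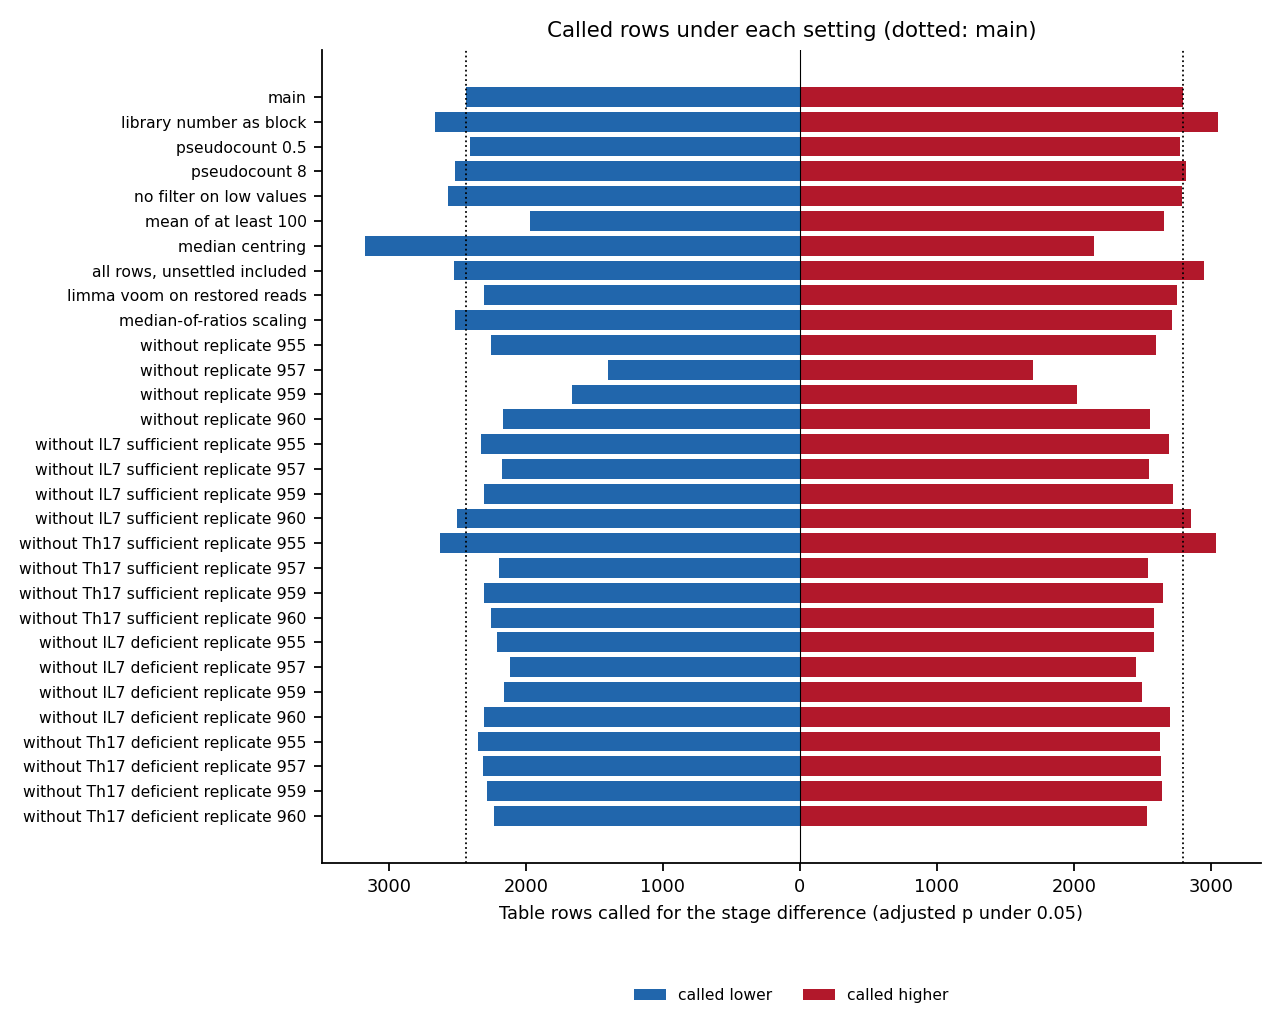
Number of rows called lower (blue, to the left) and higher (red, to the right) for the stage difference under the main setting and 29 alternatives, with dotted lines at the main counts of 2439 and 2794. Leaving out the libraries numbered n957 gives the shortest bars, 1404 and 1703, and median centring the largest shift between the directions, 3176 and 2144.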

How the data were processed

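RNA of 16 libraries was made with a stranded poly(A) kit, per the labels' protocols. Trim Galore 0.4.4 for trimming, STAR 2.6 for alignment, build NCBIM37, featureCounts, edgeR and DESeq2 are named in the submitters' processing notes, whose settings the sources used here do not give.

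The deposited table holds, per the file headers, a normalized count per gene and library and, for 8552 named genes, the authors' mean, log2 fold change with its standard error, test statistic (a score) and p-values of Th17 deficient against Th17 sufficient cells. The normalized counts are a signal value that the authors scaled, deposited as digits without a decimal point, and their rows are not in the order of the names. The decimal point was restored from the step that 1 read is worth in each library. Of the nonzero values, 99.993% came out whole (relative tolerance 1.2e-09), and 8.49% had lost trailing zeros, which were put back by a negative binomial model over libraries. The model also linked the sufficient and deficient groups of a stage through the deletion effects of rows whose posterior was over 0.999 in both. This link changed the powers of 10 of 488 rows, 108 of them settled, so typical deletion effects entered the restoring. Rows whose powers of 10 had a posterior of at least 0.95 were kept as settled (15359 of 17850, 86.0%). The limit was 0.999 where zeros were put back in 3 or more libraries of a group. In the Th17 groups a row that received a name counted as settled whatever its posterior. Names were joined to rows by the authors' log2 fold change and standard error (tolerance 1e-06) for 8099 names (94.7%), while 7 of 1000 decoys joined. For 359 of these names the match also chose the powers of 10 of the Th17 values. The authors' mean led to the removal of 1 settled named row. The authors' mean implies 24 libraries, of which 16 were analysed here. Both steps were also run on reads simulated around the restored group means, with the same spread setting for all rows and no library set apart. That run does not measure how often values of the real data were restored wrongly.

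Settled rows with a mean of at least 10 (13945) were fitted with limma 3.58.1 (R 4.3.3, eBayes with trend) on log2(value + 1), 4 groups of 4, no block, with Benjamini-Hochberg adjustment over all rows. The unit fits no count model as deposited, so no count test is the main result. Genes in the text were chosen by rule: the most negative and most positive called named genes, the largest called members of each of 27 gene lists with up to 3 uncalled ones for the T helper lists, Sin3a, and the largest opposite effects. A few genes that these rules pick are not reported here. Other list members given beside them were chosen after their values were seen. The members, lists and rules were chosen with earlier results of these data known. Alternatives were other pseudocounts, filters and scalings, a block by number, limma voom, and leaving out each library or number. Genome coordinates are those of the RefSeq promoter table (GRCm38.p6).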

Additional observations from a re-analysis of the deposited data

Results flagged for a closer look

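In 38 of 437 groups of 4 values whose highest was at least 10, 1 library lay far from the other 3, by a gap past Dixon's critical value, and chance gives this in about 1 in 20 groups. The IL-7 sufficient library n960 accounted for 13 of them. The IL-7 sufficient library n960 was the highest of its group in Fam19a3 (667), Etv6 (1094), Nfkbiz (2140), Crem (525.8), Nfil3 (282.3), Gata3 (1278), Dhx58 (1529), Samd9l (9698), Ifit2 (2961), Atf4 (4655) and Mrpl45 (800.5) and the lowest in Zfp395 (806.5) and P2rx4 (486.9). The Th17 sufficient library n960 was the highest of its group in Lrp1 (1416), Tigit (581.1), Btg1 (9887), Prf1 (288.9), Aldoc (2814), Cox4i2 (95.91) and Slc7a3 (362.2) and the lowest in Rcc2 (7595). The IL-7 deficient library n960 was the highest of its group in Slc35f2 (251) and Stat3 (4790) and the lowest in Jag2 (1073) and Cdkn2d (1665). The Th17 sufficient library n955 was the lowest of its group in Gm21971 (110.6), Gata3 (197.5), Ddit4 (18209), Cdkn2d (3412) and Zfp82 (60.25). The Th17 deficient library n959 was the highest of its group in Gm21971 (46) and Ddit4 (8565). The IL-7 deficient library n959 was the highest of its group in Nfkbiz (1426) and the lowest in Trav7-4 (55.01). The Th17 deficient library n955 was the highest of its group in Ikzf3 (2674). The Th17 deficient library n960 was the highest of its group in Il17a (349.7). The IL-7 sufficient library n959 was the lowest of its group in Prf1 (318.6). The IL-7 deficient library n955 was the highest of its group in Sin3a (2358).

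The deletion effect was called in opposite directions at the 2 stages, higher in IL-7 and lower in Th17 cells, with a called stage difference, for the genes with the largest such difference: Sox5 (-2.604), Rdm1 (-1.66), Trav14d-3-dv8 (-1.537), Trav7-4 (-1.424), Carf (-1.253), Katnal1 (-1.244), Pde7a (-1.238) and P2rx4 (-1.21) on the log2 scale. The difference between stages is itself the tested quantity here, and these genes were picked for it from the same fit.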

How the results depend on the processing

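Under 29 alternatives 0 of 216 called genes, taken over all lists and named genes, changed sign, and 122 of 391 genes not called did in 1 or more. Among genes chosen by rule these were Stat3 (-0.0023 under median centring), Ccr4 (-0.0196 under median centring), Il4ra and Sin3a, which ranged over -0.132 to 0.223, -0.178 to 0.275, -0.102 to 0.412 and -0.136 to 0.0113 when libraries were left out. Medians of 5 of 27 lists changed sign in 1 to 5 alternatives: IL-2 and STAT5, T cell activation, cell cycle, interferon-induced and proteasome. Of the 102 called genes chosen by rule, 62 were called in every alternative that tested them and 40 were lost in 1 or more. With the number as a replicate block the fit called 2667 rows lower and 3053 higher (5160 of the 5233 called rows were shared), 28 named genes higher in place of 14, 790 rows in place of 499 for the deletion in IL-7 cells, and 29 named genes with opposite effects in place of 19. As a check of the pairing, 15 of 24 same-number pairs of libraries had deviations correlated above 0.1 (0.0216 to 0.70). In 18 of 24 comparisons of a library with those of another group, it correlated best with its own number. Libraries enter more than 1 of these comparisons, which give a hint from the data, not the design. Median centring left 8 named genes higher. Leaving out the libraries of 1 number gave 1404 to 2258 rows lower, 1703 to 2600 higher, 1331 to 2110 named genes lower, 3 to 26 named genes higher, 12 to 536 rows for the deletion in IL-7 cells and 0 to 17 named genes with opposite effects. Leaving out 1 library gave 2119 to 2625 rows lower, 2451 to 3037 higher, 1997 to 2450 named genes lower, 7 to 40 named genes higher, 160 to 620 rows in IL-7 cells and 0 to 28 opposite genes. The cause of these shifts was not tested, and each of these fits also had fewer libraries. Counts of list members moved by over 1.5 times in 101 of the list results and not in 682. limma voom called 2303 rows lower and 2755 higher, a mean of at least 100 gave 1969 and 2657, and median-of-ratios scaling, chosen after the data were seen, gave 2518 and 2714. DESeq2, edgeR and TMM scaling were not run. The deposited values are not counts, and limma voom and median-of-ratios scaling were the methods used on the restored reads. Genes at a few reads in IL-7 cells, such as Il17a, allow no measurable deletion effect there.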
